A study of Mus musculus with 12 samples.

Results

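The 10 genes described here are the transcription factor gene Hif1a and 9 genes that it is known to switch on when oxygen is low, among them the glucose carriers Slc2a1 and Slc2a3. They were chosen by symbol, and all 10 are among the 11911 genes of the deposited table. The RNA is that of neutrophils sorted from mouse left ventricles, in 6 libraries of genotype control (numbered 2, 6, 7, 8, 11 and 12 in the titles) and 6 of genotype LOY (3, 4, 5, 10, 14 and 15), which stands beside a series title on Y chromosome loss in the haematopoietic lineage. All 12 titles name a control bone marrow transplant (BMT), and all 12 carry control as their treatment. Each library came from 800 cells that carried the CD45.2 leukocyte allele, the neutrophil antigen Ly6G and a red fluorescent protein and lacked the macrophage receptor CD64. The strain, age and sex of the mice and the way the Y chromosome was lost are not given in the sources used here. Whether the 12 libraries are 12 mice is also not stated, and the p-values below take the spread between libraries, technical or not, as their error.

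HIF-1 is a dimer of an oxygen-labile alpha subunit, encoded by Hif1a, and a stable partner, encoded by Arnt. When oxygen is present, prolyl hydroxylases (the EGLN enzymes) mark the alpha subunit for destruction through the VHL ubiquitin ligase, so the amount of the protein is set mostly after translation and the transcript level alone does not report it. When the protein is stable it binds a short core sequence near its target genes and raises glucose uptake, glycolysis and the release of vascular growth factor. Neutrophils live largely on glycolysis, and HIF-1 is known to prolong their survival in low oxygen.

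The core that HIF binds is ACGTG or GCGTG, and the promoters are shown here to give the sequence context of the genes. Known HIF targets are recognised in part by this core, so its presence in them is a description of the choice of genes. RefSeq promoter windows (GRCm38.p6, 250 bases before to 50 after a start site) were found for 9 of the 10 genes, Ero1l under its RefSeq name Ero1a; Slc2a3 had none. Both motifs were searched on both strands, and a match to one motif on each strand can overlap where the letters are CACGTG. Of the 13 windows of these 9 genes, 11 held a match (84.6%), against 43.8% of all 32851 windows; windows of 1 gene can overlap. ACGTG was in 19.6% of all windows and GCGTG in 32.4%. A match is a description of the letters and not a bound site, and no binding was measured in these cells. For 7 genes 41 bases around a match upstream of the start site are printed 5′ to 3′ on the gene's strand, with the motif in capitals. In Slc2a1 the capitals are the reverse complement of GCGTG, since that match lies on the opposite strand.
Hif1a, chr12:73907779-73907819, plus strand: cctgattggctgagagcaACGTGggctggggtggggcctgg
Egln3, chr12:54204081-54204121, minus strand: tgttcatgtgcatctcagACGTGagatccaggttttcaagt
Slc2a1, chr4:119108666-119108706, plus strand: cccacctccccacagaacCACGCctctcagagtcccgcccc
Pdk1, chr2:71873128-71873168, plus strand: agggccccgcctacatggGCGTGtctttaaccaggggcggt
Pfkfb3, chr2:11502120-11502160, minus strand: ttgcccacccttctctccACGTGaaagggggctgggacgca
Bnip3, chr7:138909591-138909631, minus strand: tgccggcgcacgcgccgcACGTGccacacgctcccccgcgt
Ero1l, chr14:45318638-45318678, minus strand: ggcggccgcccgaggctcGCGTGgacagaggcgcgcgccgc
The motif started between 229 bases (Egln3) and 52 bases (Pfkfb3) before the start site in these windows. The windows of the printed Hif1a and Pfkfb3 sequences belong to start sites inside the gene and lie wholly within it. Of the 2 Vegfa windows, the one at the outer start site held no match and the other held 2.

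The libraries held 6767108 to 12561174 reads of the listed genes and 7539 to 9463 genes above 0. Levels are given as normalised reads, that is, reads scaled by a factor for each library, and a single read was worth 0.568 to 1.27 of them. The summed normalised reads of the Y-linked genes Ddx3y, Eif2s3y and Uty ran from 1032 to 1972 in the control and from 0 to 59.3 in the LOY libraries, which fits the labels. Of 12 genes that mark mature neutrophils, 11 had at least 1908 normalised reads in every library. Ly6g, the gene of the sorting antigen, was at 0 in LOY 3 and below 6 in control 12 and LOY 4 and 10. The 15 cardiomyocyte markers were all above control in the LOY mean of log2 values, and their summed level was 4405 to 9352 in control and 6301 to 71323 in LOY libraries, highest in LOY 10. Sums for the other cell types, control first, ran from 1167 to 5336 and 3621 to 6573 for endothelial markers, from 2972 to 10540 and 5835 to 16546 for fibroblast markers and from 7372 to 11355 and 4102 to 13988 for macrophage markers. Red cell and platelet markers summed to 13.6 to 10063 and 165 to 7385, and neutrophil markers to 232279 to 612222 and 212828 to 390285. Gsn weighed most in the fibroblast sum, at means of 6235 ± 2949 and 6562 ± 2443 (SD, n = 6). Dcn came next at 277 ± 284 and 1102 ± 837. The log2 fold change was positive for 6 of 6 tested fibroblast and 8 of 11 endothelial markers. For macrophage markers it was positive for 2 of 10, for red cell and platelet markers 1 of 5, and for neutrophil markers 4 of 12. The part of other cells in the values below was not tested.

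None of the 10 genes passed the test of LOY against control libraries in limma, fitted over all genes on log2(normalised reads + 1) with a threshold of 0.05 on the Benjamini-Hochberg adjusted p. All 10 were tested, since each reached 10 normalised reads in 6 or more libraries. The count of 0 stands beside 2 of 6951 tested genes (0.0288%) that passed. At an unadjusted p below 0.05 the count was also 0 of 10, against 304 genes in all (4.37%). The adjusted p-values of the 10 ran from 0.997 to 0.999 in limma, from 0.703 to 0.999 in DESeq2, which called 303 genes in all (3.12%), and stood at 0.9998 in edgeR, which called 0 of 7054 (0%) with 130 at an unadjusted p below 0.05. In DESeq2 and edgeR too, 0 of the 10 had an unadjusted p below 0.05. In the authors' deposited table the adjusted p-values of the 10 run from 0.703 (Slc2a1) to 0.999. The deposited log2 fold changes and unadjusted p-values of the 10 equal those of DESeq2 here, so they are not a separate result. The ranges of the groups overlapped for all 10 genes, while 0.201% of the tested genes had groups that did not overlap. The log2 fold change, LOY over control, was positive for 5 and negative for 5, with a median of -0.091, against a median of 0.0081 over all tested genes. In bulk RNA from sorted cells, fewer cells with a transcript and less of it per cell cannot be told apart.

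**Figure D1:**
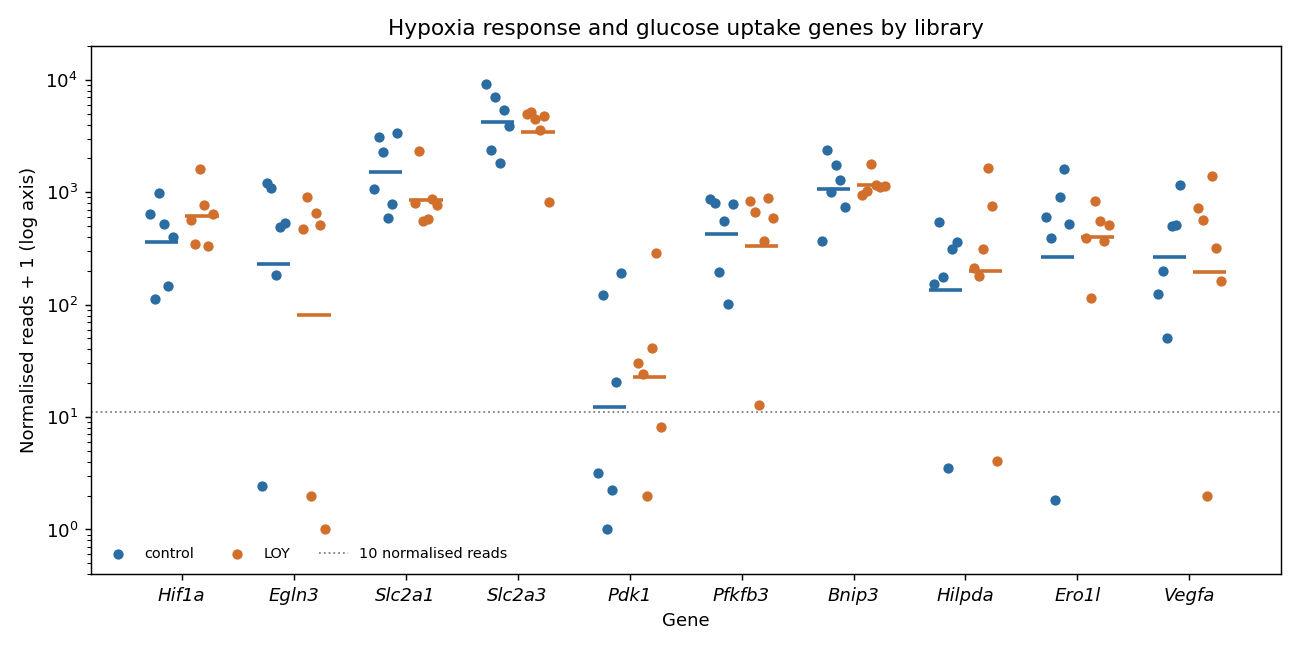
Normalised reads plus 1 (log axis) of each of the 10 genes, with 1 point per library, control in blue and LOY in orange; bars are the group means on the log2 scale and the dotted line marks 10 normalised reads. The groups overlap for every gene, and 12 of the 120 points lie below the line, in Egln3, Pdk1, Hilpda, Ero1l and Vegfa.

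Hif1a itself (ENSMUSG00000021109, GRCm38 chromosome 12, 73901375 to 73947530, plus strand; protein-coding, as are the other 9, in GENCODE M21) was read in every library. In control libraries it ran from 112 through a median of 457 to 986 normalised reads, and in LOY libraries from 329 through 602 to 1606. The lowest values, 112 and 147, were both control (6 and 11), and the highest was LOY 5. The means were 467 ± 327 and 709 ± 471 (SD, n = 6 each), and the log2 fold change was 0.76 (SE 0.63, 95% interval -0.59 to 2.11; limma adjusted p = 0.997). It was positive in all 21 alternative fits, from 0.42 to 1.05. Exons of Hif1a share 330 bases, 5.60% of its exon length, with the antisense gene Gm15283, and the library chemistry does not keep strand. Gm15283 reached 79.6 normalised reads at most. They also share 148 bases (2.51%) with the protein-coding gene Gm49321 on the same strand, which is not among the listed genes.

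Egln3 encodes the prolyl hydroxylase PHD3, which marks HIF alpha subunits and is itself a HIF target (ENSMUSG00000035105, chromosome 12, 54178981 to 54203860, minus strand). It was either abundant or nearly missing. Normalised reads in control ran from 1.45 through a median of 508 to 1195 and in LOY from 0 through 490 to 898. The 3 low libraries were control 2, LOY 5 and LOY 15, with 2, 1 and 0 reads, and no other library was below 181. The means were 579 ± 476 and 423 ± 360 (SD, n = 6 each). The fold change was -1.51 on the log2 scale (SE 2.06, 95% interval -5.92 to 2.90; limma adjusted p = 0.999), and it moved between -2.82 and -0.24 with 1 library left out.

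Of the glucose carriers, Slc2a3 (GLUT3, the high-affinity carrier; ENSMUSG00000003153, chromosome 6, 122727809 to 122801640, minus strand) had more reads per kilobase than Slc2a1 in 9 of 12 libraries. Control values ran from 1818 through a median of 4637 to 9234 normalised reads and LOY values from 823 through 4662 to 5122. In the LOY group 5 libraries lay between 3590 and 5122 and LOY 15 stood below them at 823. The means were 4958 ± 2845 and 3966 ± 1631 (SD, n = 6 each), with a log2 fold change of -0.31 (SE 0.50, 95% interval -1.38 to 0.76; limma adjusted p = 0.999), which turned to 0.10 without LOY 15.

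Slc2a1 (GLUT1, the basal carrier of most cells; ENSMUSG00000028645, chromosome 4, 119108711 to 119137983, plus strand) had the smallest unadjusted p of the 10 (0.134 in limma, 0.0884 in DESeq2). In control libraries it ran from 584 through a median of 1682 to 3371 normalised reads and in LOY libraries from 551 through 792 to 2339. Control 6, 7 and 12 and LOY 4 were at 2288 or more, and the other 8 libraries lay between 551 and 1077, so both groups held high and low libraries. The means were 1862 ± 1210 and 986 ± 675 (SD, n = 6 each), a ratio of 0.529. The log2 fold change was -0.81 (SE 0.51, 95% interval -1.90 to 0.28; limma adjusted p = 0.997), and it was negative in all 21 alternative fits, from -1.10 to -0.58. Its exons share 105 bases with the antisense gene Gm12868.

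Pdk1 and Pfkfb3 set the fate of the sugar once it is inside. Pdk1 (ENSMUSG00000006494, chromosome 2, 71873224 to 71903858, plus strand) encodes a pyruvate dehydrogenase kinase, which inhibits pyruvate dehydrogenase, and it was the lowest of the 10. Normalised reads in control ran from 0 through a median of 10.7 to 191 and in LOY from 0.989 through 26.4 to 289. It was below 10 in 3 control libraries (2, 7 and 8) and 2 LOY libraries (5 and 15), and above 100 in control 6 and 12 and LOY 14. The means were 55.7 ± 80.8 and 65.0 ± 110.7 (SD, n = 6 each), with a log2 fold change of 0.90 (SE 1.62, 95% interval -2.57 to 4.37; limma adjusted p = 0.999). It was 0.17 without LOY 14, 1.69 without control 12 and 0.22 with DESeq2.

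Pfkfb3 (ENSMUSG00000026773, chromosome 2, 11471433 to 11554077, minus strand) encodes the enzyme that makes fructose 2,6-bisphosphate, the activator of phosphofructokinase. Control values ran from 101 through a median of 668 to 862 normalised reads and LOY values from 11.9 through 632 to 887. LOY 5 was alone at 11.9, with the next LOY library at 369. The means were nearly equal, at 550 ± 331 and 561 ± 326 (SD, n = 6 each). The log2 fold change of -0.35 (SE 1.01, 95% interval -2.51 to 1.81; limma adjusted p = 0.999) turned to 0.59 without LOY 5.

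Bnip3 (ENSMUSG00000078566, chromosome 7, 138890836 to 138909519, minus strand) encodes a mitochondrial outer membrane protein that promotes mitophagy, and it was the steadiest of the 10 in the LOY group. In control libraries it ran from 370 through a median of 1142 to 2381 normalised reads and in LOY libraries from 940 through 1126 to 1780. The LOY range lay wholly inside the control range. The means were 1255 ± 726 and 1191 ± 300 (SD, n = 6 each), a coefficient of variation of 57.9% and 25.2%, against medians of 84.9% and 81.2% over all tested genes. The fold change was 0.13 on the log2 scale (SE 0.42, 95% interval -0.78 to 1.03, the narrowest of the 10; limma adjusted p = 0.999), and it turned to -0.18 without control 2. The antisense gene Gm45507 shares 504 bases of its exons (22.3%), and reads over those bases cannot be assigned without strand.

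Hilpda (ENSMUSG00000043421, chromosome 6, 29272488 to 29275446, plus strand) encodes an inhibitor of the lipase ATGL that lets lipid droplets build up in low oxygen. Normalised reads in control ran from 2.53 through a median of 245 to 541 and in LOY from 3.09 through 262 to 1639. Control 8 and LOY 15 were nearly empty, with 2 and 3 reads, and LOY 10 was highest. The means were 257 ± 188 and 517 ± 605 (SD, n = 6 each), a ratio of 2.01. The log2 fold change of 0.57 (SE 1.52, 95% interval -2.69 to 3.82; limma adjusted p = 0.999) turned to -0.043 without LOY 10 and to -0.48 without control 8.

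Ero1l (ENSMUSG00000021831, chromosome 14, 45283087 to 45318771, minus strand) encodes an oxidase of the endoplasmic reticulum that drives disulfide formation. Control values ran from 0.828 through a median of 561 to 1611 normalised reads and LOY values from 114 through 450 to 838. Control 7 had 1 read, and every other library had at least 114 normalised reads. The means were 673 ± 546 and 461 ± 240 (SD, n = 6 each), lower in LOY, while the log2 fold change was positive at 0.59 (SE 1.35, 95% interval -2.31 to 3.49; limma adjusted p = 0.999). It turned to -0.84 without control 7.

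Vegfa (ENSMUSG00000023951, chromosome 17, 46016993 to 46032369, minus strand) encodes vascular endothelial growth factor A, the secreted signal for vessel growth. In control libraries it ran from 49.7 through a median of 347 to 1149 normalised reads and in LOY libraries from 0.989 through 440 to 1393. LOY 5 held 1 read, and LOY 10 was the highest of all 12. The means were 421 ± 405 and 527 ± 499 (SD, n = 6 each), higher in LOY, while the log2 fold change was -0.44 (SE 1.41, 95% interval -3.47 to 2.58; limma adjusted p = 0.999). Without LOY 5 it was 0.88, and without LOY 10 it was -1.01. LOY 10, highest for both Vegfa and Hilpda, also had the highest summed cardiomyocyte (71323), fibroblast (16546) and macrophage markers (13988) of the 12. Its endothelial sum (5371) was below that of LOY 15 (6573). LOY 15 also had high cardiomyocyte (17431) and macrophage sums (12512.5), with Hilpda at 3.09 and Vegfa at 161 normalised reads. The part of other cells in the Vegfa and Hilpda values was not tested.

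**Figure D2:**
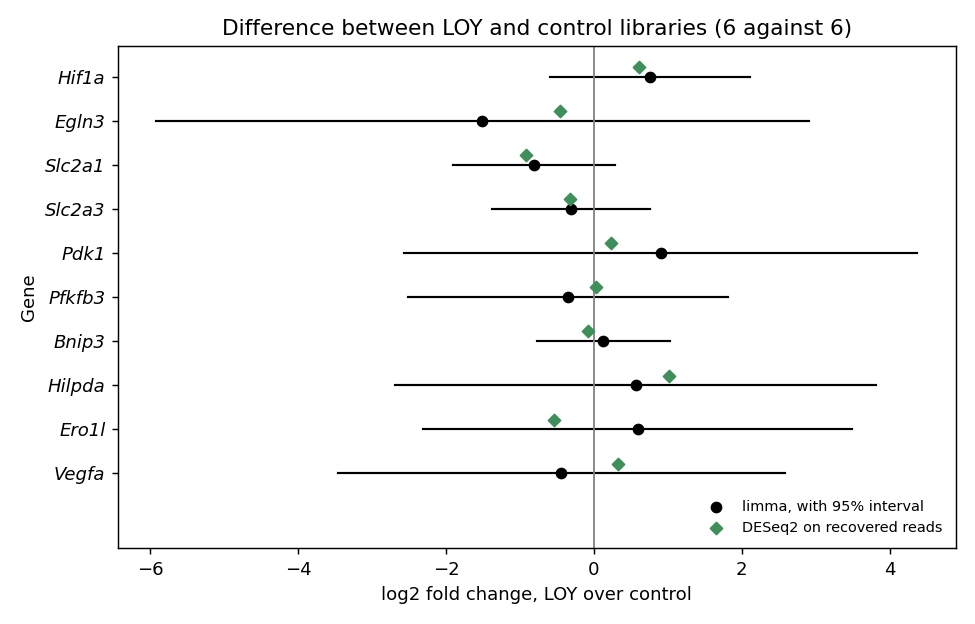
The log2 fold change, LOY over control, of each gene in limma (black points with 95% intervals) and in DESeq2 on the recovered reads (green diamonds). Every interval includes 0, the narrowest belongs to Bnip3 (-0.78 to 1.03) and the widest to Egln3 (-5.92 to 2.90), and the methods differ in sign for Vegfa, Ero1l, Bnip3 and Pfkfb3.

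The precision differed between the genes. Standard errors on the log2 scale were 0.42 to 0.63 for Bnip3, Slc2a3, Slc2a1 and Hif1a, and 1.01 to 2.06 for the other 6. A change of 1 log2 unit in at least 1 direction lay inside every interval, so none of the 10 intervals leaves out a 2-fold difference both ways.

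Low values came in few libraries. Of the 120 values of the 10 genes in 12 libraries, 12 were below 10 normalised reads (10%), against 18.1% of the values of all tested genes. They fell on 6 control and 6 LOY values. All 12 came from 5 libraries, with 3 each in LOY 5 (Vegfa, Pdk1 and Egln3) and LOY 15 (Hilpda, Pdk1 and Egln3) and 2 each in control 2 (Pdk1 and Egln3), control 7 (Pdk1 and Ero1l) and control 8 (Hilpda and Pdk1). The other 7 libraries held all 10 genes at 10 or more. Over all tested genes, the share below 10 ran from 10.3% in LOY 3 to 26.9% in LOY 5, with 24.1% in control 8 and 19.1% in LOY 15. Control 8, LOY 5 and LOY 15 also had the lowest weights when limma estimated a weight per library (0.472, 0.659 and 0.7496), while control 2 and 7 were at 1.11 and 1.05. The share over all tested genes was 17.5% in control 2 and 20.4% in control 7, and 20.1% in LOY 4, where none of the 10 was low. The part of library quality in these low values was not tested. Of the 10 genes, 5 (Hif1a, Slc2a1, Slc2a3, Bnip3 and Pfkfb3) were at 10 or more in every library, as were 35.3% of all tested genes.

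**Figure D3:**
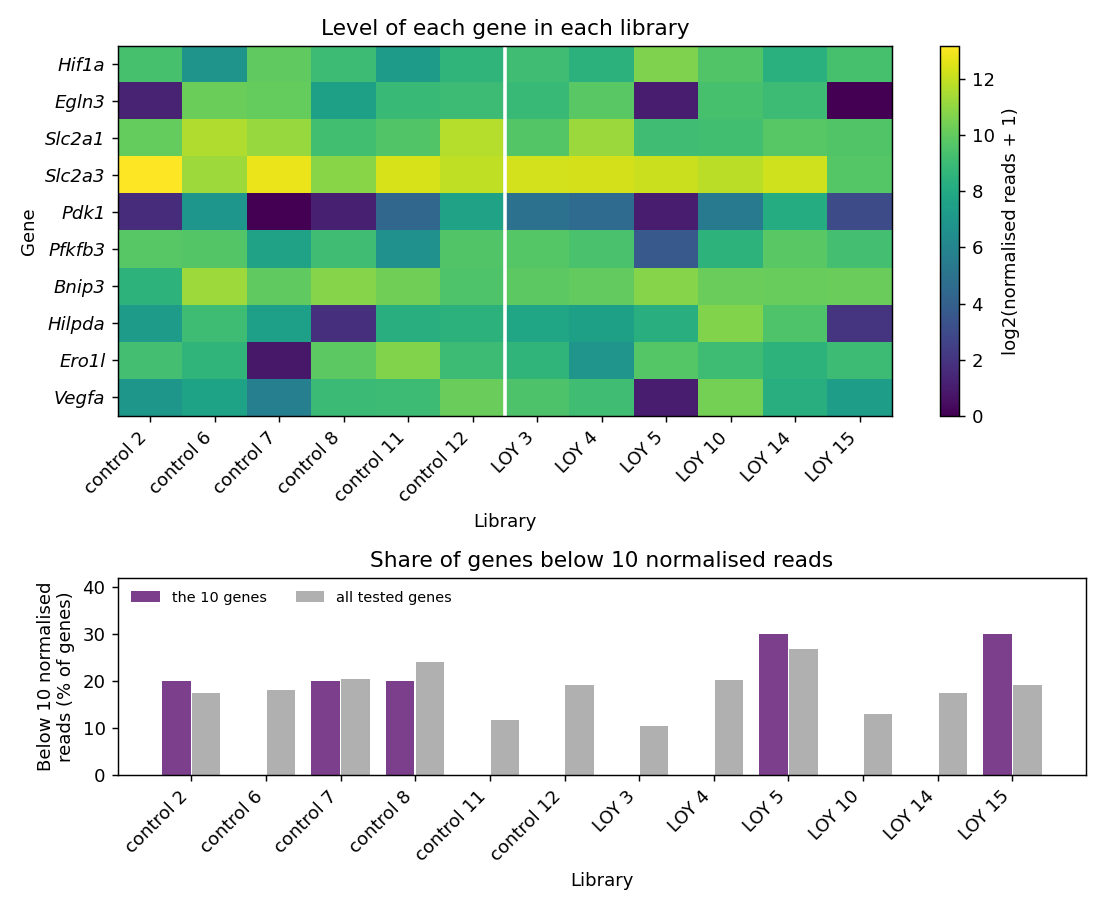
Top, log2(normalised reads + 1) of the 10 genes (rows) in the 12 libraries (columns; the white line parts control from LOY); bottom, the percentage of genes below 10 normalised reads in each library, for the 10 genes (purple) and for all tested genes (grey). The dark cells sit in 5 libraries, control 2, 7 and 8 and LOY 5 and 15, where 20% or 30% of the 10 genes were below 10.

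Levels of different genes were compared as normalised reads per kilobase of exon over the 12 libraries, with lengths from GENCODE M21. The order from high to low was Slc2a3 (616 ± 313), Bnip3 (540 ± 234), Slc2a1 (406 ± 297), Hilpda (351 ± 406), Egln3 (188 ± 154), Vegfa (111 ± 102), Ero1l (107 ± 79), Hif1a (99.7 ± 69.0), Pfkfb3 (73.5 ± 41.4) and Pdk1 (7.76 ± 11.89; SD, n = 12 each). Slc2a3 and Bnip3 stood at the 91.3 and 90.2 percentile of the tested genes, and Pdk1 at the 2.42 percentile. Of the 9 steps between neighbours in this order, only that from Pfkfb3 to Pdk1 passed a test of the mean log2 difference. The order, and so the pairs and their direction, came from the same 12 libraries. The adjustment covers only these 9 steps, so the p-values describe the order. Pfkfb3 was higher per length in 12 of 12 libraries, by 3.69 ± 1.80 log2 units (SD; two-sided exact sign-flip permutation test, p = 0.000488, the smallest that 12 libraries can give; adjusted p = 0.00439 over 9 comparisons). For the other 8 steps the higher gene led in 6 to 9 of 12 libraries (adjusted p of 0.490 to 0.937, same exact test).

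Relatives of the 10 genes add to this picture as levels per length over all 12 libraries. Slc2a6, a carrier of the same family, stood at 773 ± 247 normalised reads per kilobase (SD, n = 12), above Slc2a3 in 9 of 12 libraries and above Slc2a1 in 10. Pfkfb4, which encodes a sister enzyme of Pfkfb3, stood at 484 ± 291 and above Pfkfb3 in 12 of 12 libraries. Pdk2, a sister kinase of Pdk1, was at 46.1 ± 51.8 and above Pdk1 in 8 of 12. Epas1, which encodes the alpha subunit of HIF-2, was at 27.6 ± 40.0, and Hif1a was above it in 11 of 12.

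The HIF pathway beyond the 10 genes was compared next in 3 lists, and none of their genes passed over all genes in limma. Of the 15 genes of HIF subunits and oxygen-dependent regulators, 11 were tested, with 0 higher and 0 lower (6 positive and 5 negative log2 fold changes, median 0.092). Elob, a subunit of the VHL ligase, was the most abundant of them, with 1054 ± 349 (control) and 1097 ± 250 (LOY) normalised reads (SD, n = 6) and a log2 fold change of 0.092 (SE 0.33). Its partner Eloc had the smallest p, at 1083 ± 561 and 658 ± 150 (log2 fold change -0.63, SE 0.38; limma adjusted p = 0.997). Log2 fold changes were -0.70 (SE 0.61) for the coactivator gene Ep300 and 1.67 (SE 1.53) for Epas1. The group means of Epas1 were nearly equal, at 154 ± 301 (control) and 154 ± 139 (LOY) normalised reads (SD, n = 6). It was below 10 in 2 libraries, and its log2 fold change in DESeq2 was 0.0083.

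Of 30 other HIF target genes 20 were tested, with 0 higher and 0 lower (11 positive and 9 negative, median 0.15). The most abundant were Aldoa, the glycolytic aldolase gene, at 8501 ± 2360.1 and 7629 ± 2779 normalised reads, and Slc16a3, which encodes the lactate exporter MCT4, at 7509 ± 2870.3 and 8659 ± 3518 (control and LOY, SD, n = 6 each). Their log2 fold changes were -0.20 (SE 0.29) and 0.16 (SE 0.36). The smallest p belonged to Bnip3l, the mitophagy relative of Bnip3, with 1849 ± 499 (control) and 1289 ± 302 (LOY) normalised reads (SD, n = 6) and a log2 fold change of -0.51 (SE 0.28, limma adjusted p = 0.997). Log2 fold changes were 1.92 (SE 1.17) for Higd1a, a mitochondrial survival gene, and -2.12 (SE 1.32) for the MYC antagonist gene Mxi1. Each was below 10 normalised reads in 1 library, and in DESeq2 the log2 fold changes were 1.53 and -0.92.

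Of 22 genes of glucose entry and its gatekeeping enzymes 7 were tested, with 0 higher and 0 lower (4 positive and 3 negative, median 0.20). Slc2a6 had 2329.7 ± 673 (control) and 2638 ± 932 (LOY) normalised reads, a log2 fold change of 0.20 (SE 0.30). Pfkfb4 had 2934 ± 1709 and 1782 ± 848 (SD, n = 6), a log2 fold change of -0.63 (SE 0.39, limma adjusted p = 0.997). Hk1 and Hk2 encode hexokinases, which trap glucose in the cell. Hk1 stood at 356 ± 395 and 634 ± 670 normalised reads, a log2 fold change of 1.64 (SE 1.42), and Hk2 at 627 ± 658 and 247 ± 192 (control and LOY, SD, n = 6; limma adjusted p = 0.997 for both). Hk1 was below 10 in 1 library, and its log2 fold change in DESeq2 was 0.83. At an unadjusted p below 0.05 the count was 0 in all 3 lists. Slc2a4, the insulin-responsive carrier gene of muscle and fat, was named after its values were seen. It had 0 reads in all 6 control libraries and in 4 LOY libraries, 163 reads in LOY 3 and 108 in LOY 10. It fell below the filter of limma, and DESeq2 called it (adjusted p = 2.13e-11), the 1 call among the 3 lists with any of the 3 tools, on the reads of 2 libraries. The summed cardiomyocyte markers were 71323 in LOY 10 and 16923 in LOY 3, and 17431 in LOY 15, where Slc2a4 was at 0; their part in the call was not tested.

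Whether the targets followed Hif1a from library to library was examined over the 12 libraries, as 9 relations on log2(normalised reads + 1). None passed after adjustment over the 9. The 9 all use the same Hif1a values, and some targets ran together (Vegfa and Pfkfb3, r = 0.75), so they are not independent. The share of negative coefficients over all genes was not counted. Of the 9 Pearson coefficients 8 were negative, and Slc2a3 alone was positive (r = 0.097). The largest was with Pdk1 (r = -0.62, permutation p = 0.0300, adjusted p = 0.270; Spearman's rho = -0.64, permutation p = 0.0297, adjusted p = 0.268). It was -0.70 without control 6 and 11, the 2 libraries farthest from the median of Hif1a, -0.72 within the control and -0.80 within the LOY libraries, and -0.69 to -0.55 with 1 library left out. Of the 12 Pdk1 values 9 were at or below 40.3 normalised reads, and the values of a library share its factor, so the relation is described only.

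Vegfa (r = -0.51, permutation p = 0.0987, adjusted p = 0.296; rho = -0.36, permutation p = 0.247, adjusted p = 0.444) and Pfkfb3 (r = -0.41, permutation p = 0.191, adjusted p = 0.345; rho = -0.41, permutation p = 0.190, adjusted p = 0.444) turned on LOY 5. Without control 6 and 11 they reached r = -0.77 (permutation adjusted p = 0.0486) and r = -0.85 (permutation adjusted p = 0.00720). Spearman's rho did not pass there, at -0.48 for Vegfa and -0.71 for Pfkfb3 (permutation adjusted p = 0.374 and 0.175). Without LOY 5 the Pearson coefficients were -0.16 and 0.064 (permutation adjusted p = 0.825 and 0.864). Within the control libraries r was -0.41 and 0.079, and within the LOY libraries -0.72 and -0.88. Spearman's rho within the 6 LOY libraries was -0.94 for Pfkfb3 and Slc2a1 and 0.94 for Ero1l. Each of these had a permutation p of 0.0167 and an adjusted p of 0.05, which is not below the threshold. The Pfkfb3 coefficient also moved to r = -0.69 without control 11 (permutation adjusted p = 0.192). LOY 5 was the library with the most Hif1a (1606 normalised reads) and the least Vegfa (0.989) and Pfkfb3 (11.9).

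**Figure D4:**
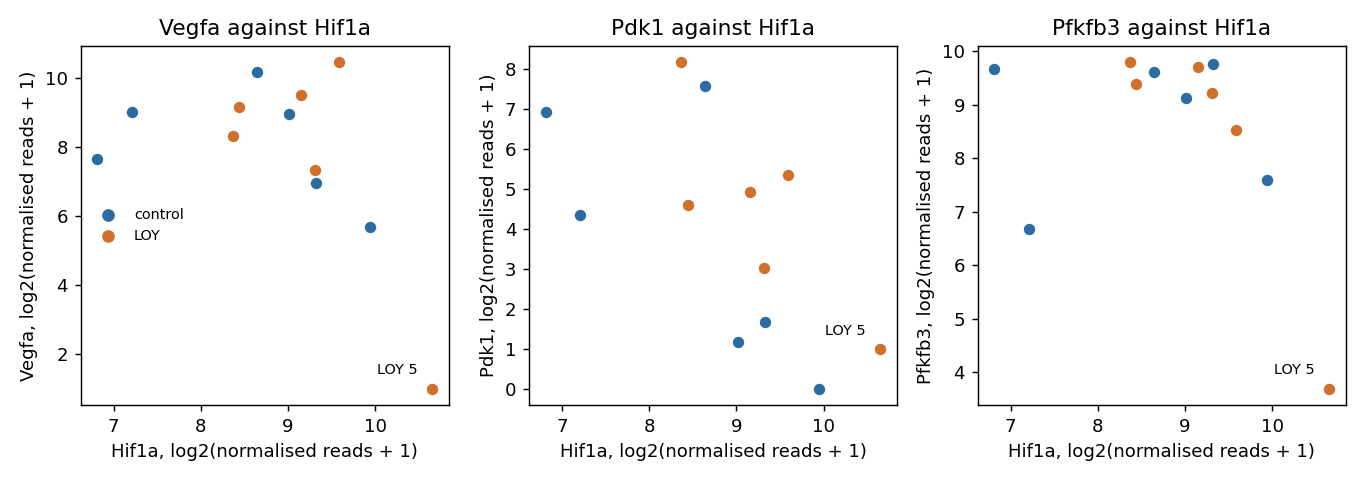
Vegfa, Pdk1 and Pfkfb3 against Hif1a, each as log2(normalised reads + 1), with 1 point per library (control blue, LOY orange). LOY 5 lies at the lower right in all 3 panels, with 1606 normalised reads of Hif1a; without it r is -0.16 for Vegfa, -0.55 for Pdk1 and 0.064 for Pfkfb3.

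The genes whose levels ran most closely with Hif1a in the same direction were also listed. Over the 12 libraries, among 4122 other genes read in every library, the highest Pearson coefficients of log2(normalised reads + 1) with Hif1a were those of Gas6 (0.84), Nfkbib (0.84), Timm13 (0.83), Hsd11b1 (0.83) and Tnfrsf23 (0.81). Within the control libraries these 5 ran from 0.80 to 0.96 and within the LOY libraries from 0.48 to 0.95. They are the highest of 4122 by choice, all from the same libraries, and are given as a description.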

How the data were processed

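RNA from 800 sorted cardiac neutrophils per library (6 control, 6 LOY) was amplified with SMART-Seq v4 and made into Nextera XT libraries, per the labels' protocols; this chemistry keeps neither strand nor molecular identifiers, so PCR duplicates are counted. The submitters' processing notes list Trimmomatic 0.36 and bcl2fastq 2.17, featureCounts (Subread 1.5.2) and STAR 2.5.2b, and the builds GRCm38 and mm10. The signal columns the authors deposited are gene reads over a library's own factor: all values above 0 (100%) were whole multiples of 1 step to within 0.01 reads, so read counts could be recovered; in LOY 5 the step (0.989) is close to 1, and 1.13% of its values as deposited are whole to within 0.01, so the step is not rounding to whole numbers. The deposited table also holds the authors' log2 fold change, p-value and adjusted p-value per gene; which tool made them is not stated. Genes of low mean are not listed, so totals are of the listed genes. Symbols turned into dates (17) or blank (8) were replaced from GENCODE M21, which matched 11896 identifiers and gave coordinates and exon lengths.

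The main test was limma 3.58.1 (R 4.3.3; trend, robust) on log2(normalised reads + 1), 6 against 6, on genes reaching 10 normalised reads in 6 libraries or more. Fold changes are on this scale and can differ in sign from a ratio of means where a library is near 0. Alternatives were DESeq2 1.42.0 and edgeR 4.0.16 on the recovered reads, other pseudocounts and filters, quantile normalization, array weights, a log2 fold change of at least 1, each library left out and control 8 with LOY 5 left out. Relations used 100000 permutations (all orders within groups of 6). The fit was tried on simulated counts in which the dispersion of the most variable genes was capped. Such genes were simulated as steadier than observed, and no result here rests on that trial. No 2 of the 66 pairs of libraries agreed within sampling noise (lowest chi-square per degree of freedom 196). Named beside the 10 genes were, per list, the 3 of smallest p and the 2 of highest mean, and the 5 genes nearest to Hif1a; the sister genes set beside them by length were chosen for their family. The genes and lists were chosen with earlier results of these data known. Markers of 6 cell types were summed per library.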

Additional observations from a re-analysis of the deposited data

Results flagged for a closer look

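In 9 of 20 groups of 6 values (10 genes, control and LOY) the highest or lowest library stood apart from the others on the log2(normalised reads + 1) scale, its gap to the next, over the group's range, being above Dixon's critical value; chance flags about 1 in 20 groups of normal values. By the same rule 15.1% of the 13902 groups of all tested genes stood apart, against 45% of these 20, which share their 12 libraries; the difference was not tested. In normalised reads, LOY 5 stood apart at 0.989 for Vegfa (next library 161), 11.9 for Pfkfb3 (next 369) and, on the high side, 1780 for Bnip3 (next 1153). LOY 15 stood apart at 3.09 for Hilpda (next 178) and 823 for Slc2a3 (next 3590), and LOY 4 on the high side at 2339 for Slc2a1 (next 866). Among the control libraries, control 8 stood apart at 2.53 for Hilpda (next 150.1), control 7 at 0.828 for Ero1l (next 394) and control 2 at 1.45 for Egln3 (next 181).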

How the results depend on the processing

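No paired analysis was possible because the control and LOY libraries share no replicate number. The count of the 10 genes past the threshold was 0 in all 21 alternative fits, and the lowest adjusted p of any of the 210 values was 0.703 (Slc2a1, DESeq2). The direction of the log2 fold change held in all 21 for Hif1a, Slc2a1, Pdk1 and Egln3 and turned in 21 values of the other 6 genes. The fits with no filter and with a mean of at least 50 cannot change the fold change, since only the genes tested differ. With DESeq2 it was 0.32 for Vegfa, -0.076 for Bnip3, 0.028 for Pfkfb3 and -0.54 for Ero1l; with edgeR 0.31, -0.074, 0.020 and -0.53. With array weights it was 0.18 for Vegfa and 0.17 for Pfkfb3, with quantile normalization 0.12 for Pfkfb3, and without control 8 and LOY 5 it was 1.06 for Vegfa, -0.61 for Hilpda, -0.63 for Slc2a3 (same direction) and 0.67 for Pfkfb3. With 1 library left out the values ran from -1.01 to 0.88 for Vegfa, -0.48 to 1.69 for Hilpda, -0.56 to 0.10 for Slc2a3, -0.18 to 0.36 for Bnip3, -0.76 to 0.59 for Pfkfb3 and -0.84 to 1.11 for Ero1l. The count over all genes (2) was 303 with DESeq2 and 0 with edgeR, with no filter, with a mean of at least 50 and without control 8 and LOY 5, and ran from 0 to 4 with 1 library left out; the 3 HIF lists had 1 call with DESeq2 and 0 otherwise. The cause was not tested. The relation of Hif1a without its 2 farthest libraries was -0.77 for Vegfa and -0.85 for Pfkfb3, both then past the threshold for Pearson's r but not for Spearman's rho, 0.035 for Hilpda and 0.26 for Bnip3. Within the LOY libraries it was -0.12 for Slc2a3, 0.81 for Bnip3 and 0.79 for Ero1l, and within the control libraries 0.079 for Pfkfb3. With 1 library left out, an alternative chosen after seeing the data, it ran from -0.051 to 0.29 for Slc2a3, -0.51 to 0.078 for Bnip3, -0.69 to 0.064 for Pfkfb3 and -0.43 to 0.062 for Ero1l. Values below 10 normalised reads limit what can be said of Pdk1 (5 libraries), Egln3 (3), Hilpda (2), Ero1l (1) and Vegfa (1).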
